A study of Mus musculus with 9 samples.

Results

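The genes Ifit2, Ifit3, Rsad2, Cmpk2, Rtp4, Bst2, Ifi44, Xaf1, Samd9l and Ifitm3 are antiviral effectors that interferon induces, and they were chosen by name as a list of 10. A gene was measured by the probe set that is annotated with its symbol alone, and 9 of the 10 genes have such a probe set, 1 each, among 19938 genes tested. Ifi44 was not analysed here. The genes were compared between the selected lines MR20 and DR500 and their parental line 4T1, a mouse mammary carcinoma cell line that grows in BALB/c mice, with 3 arrays per line. MR20 cells are all the survivors of methotrexate, a folate antagonist, labelled as 20 µg/ml where the paper's text has 20 ng/ml. DR500 cells are the survivors of doxorubicin, an anthracycline, given in rising doses to 500 ng/ml, although the sample labels also name methotrexate for them. MR20 cells were kept without drug for 2 weeks before RNA extraction. For DR500 the labels give no such interval, while the paper's methods describe 2 weeks of recovery in normal medium after selection. The 4T1 cells were untreated, and for MR20 the labels state that they were of the same batch and grown in parallel. Each selected line is a single population, so its 3 arrays are wells of that population, and p-values measure only the spread between wells, which may be technical. The labels of the DR500 arrays name 4T1 wells in another way, and no array batch is stated. A batch of the DR500 arrays and the line itself therefore cannot be told apart, in every comparison below that uses DR500.

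Type I interferons bind the receptor chains Ifnar1 and Ifnar2 on nearly every cell, and the kinases Jak1 and Tyk2 then activate Stat2. This factor joins Irf9 in a complex that binds a DNA element called the interferon-stimulated response element (ISRE) and switches on many genes. The antiviral effectors are among them, and each acts at another step of virus growth. Ifitm3 hinders fusion of viruses in endosomes, the Ifit proteins act on viral RNA and its translation, Rsad2 (viperin) makes a nucleotide that ends viral RNA chains, and Bst2 (tetherin) holds budding virions on the cell. Irf7 is itself induced and amplifies interferon production.

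The DNA before an annotated start site of the neighbours Ifit3 and Ifit2 is shown because the genes lie side by side and differed in MR20 cells. Ifit3 lies at chr19:34583119-34588982 and Ifit2 at chr19:34550550-34576534, 6.6 kb apart, in the mouse build GRCm38.p6. The sequences are from RefSeq, of the reference mouse and not of 4T1 cells, and give the 250 bases before an annotated start site, on the plus strand. These start sites lie inside the annotated gene spans. The Ifit3 stretch is therefore wholly within its gene, and the Ifit2 stretch partly. Capitals mark matches to the ISRE core GAAANNGAAA or, in Ifit2, to the gamma-activated site TTCNNNGAA, where N is any base and both strands were searched.
Ifit3, chr19:34583279-34583528: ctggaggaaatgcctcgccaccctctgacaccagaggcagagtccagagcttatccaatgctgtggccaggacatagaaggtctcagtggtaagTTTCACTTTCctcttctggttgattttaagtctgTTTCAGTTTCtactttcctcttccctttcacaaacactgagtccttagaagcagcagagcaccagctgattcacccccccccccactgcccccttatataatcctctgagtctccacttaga
Ifit2, chr19:34550444-34550693: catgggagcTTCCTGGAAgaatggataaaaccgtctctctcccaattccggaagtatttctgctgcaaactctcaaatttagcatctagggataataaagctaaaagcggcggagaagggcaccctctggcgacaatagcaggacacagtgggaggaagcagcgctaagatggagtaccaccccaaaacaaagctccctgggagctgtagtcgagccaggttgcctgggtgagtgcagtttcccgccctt
Ifit3 has the core 2 times, 156 and 122 bases before this start site inside the gene span, both on the minus strand. The Ifit2 window has none, nor has the other Ifit2 window of the table, and it has a gamma-activated site 241 bases before the start. Rsad2 and Bst2 rose in MR20 and fell in DR500, as did Samd9l, whose promoter window held no match to either motif. Short windows of Rsad2 and Bst2, both on the minus strand of the chromosome, are shown for comparison. Every match to the ISRE core is in capitals.
Rsad2, chr12:26456548-26456587: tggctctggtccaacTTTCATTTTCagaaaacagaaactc
Bst2, chr8:71537578-71537617: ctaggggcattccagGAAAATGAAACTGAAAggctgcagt
The Rsad2 match begins 120 bases before the start site. In Bst2, a match begins at 130 bases and overlaps another at 124 bases before the start, and a gamma-activated site at 136 bases overlaps the start of the match at 130 bases. Ifitm3 has GAAAAGGAAA and GAAACCGAAA 2 and 19 bases after its start site, and a gamma-activated site at 13 bases overlaps the match at 19 bases. In all, 4 of the 8 genes with a promoter window (250 bases before to 50 after a start site) held the ISRE core, against 3.443% of 32851 windows of all genes. The gamma-activated site was in 3 of the 8, against 8.298% of all windows. The windows of Cmpk2, Xaf1 and Samd9l held neither, and Rtp4 has no window in the table. A gene can have several windows, and a match is a string of letters and not a measured binding site.

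Values below are log2 expression from robust multi-array normalization (RMA), which corrects the background, equalises the distributions of the arrays and summarises the probes. They compare lines within a gene, not genes with each other, because probe sets differ in how brightly they hybridise. The arrays had medians between 6.24 and 6.38 over 35556 probe sets, and across genes they correlated at 0.995 to 0.999 within a line and at 0.966 to 0.987 between lines. The lines were compared in one limma fit of the 9 arrays with 6 residual degrees of freedom. A gene rose or fell when its p, adjusted by Benjamini-Hochberg over all 19938 genes, was under 0.05, and beyond 2-fold where this is said. With 3 arrays in each line, the smallest p of an exact permutation test would be 0.1, so none was run. Arrays without overlap between lines are common here. Among the 19938 genes, 4261 had all MR20 arrays above all 4T1 arrays, and 4738 had them all below. The counts were 5128 and 4866 for DR500 against 4T1, and 4658 and 5266 for MR20 against DR500.

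In MR20 cells, 8 of the 9 genes rose relative to 4T1 cells, 7 of them beyond 2-fold, and none fell. Of all genes tested, 15.4% rose, 1.41% rose beyond 2-fold, 17.1% fell and 1.08% fell beyond 2-fold. The median log2 fold change of the 9 genes was 3.29, against -0.01 over all genes. At an unadjusted p under 0.05, 9 genes were higher and 0 lower by limma. The changes ran over a wide range, however, with Ifit3 37.5-fold higher and Ifit2 1.18-fold higher.

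Among the genes that act on viral RNA, Ifit3, which in human cells stabilises the Ifit complex on RNA, had the largest rise of all genes tested. Ifit3 stood at 11.17, 11.12 and 11.10 on the MR20 arrays, at 5.92, 5.82 and 6.11 on the DR500 arrays and at 5.96, 5.99 and 5.75 on the 4T1 arrays. The MR20 arrays lay far above all others, while DR500 and 4T1 arrays overlapped, at signals below the array medians of 6.24 to 6.38. Its log2 fold change in MR20 was 5.23 (standard error 0.09, adjusted p = 2.17e-10 from limma), and in DR500 it was 0.05 (95% interval -0.15 to 0.25, adjusted p = 0.678).

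Ifit2, whose product binds viral RNA and is known in mice for protecting neurons from virus, showed another pattern. It stood at 8.49, 8.29 and 8.33 in MR20, at 7.13, 7.29 and 7.17 in DR500 and at 8.20, 7.95 and 8.23 in 4T1. The MR20 arrays lay just above the 4T1 arrays without overlap, and the DR500 arrays lay below both. In MR20 the log2 fold change of 0.24 (standard error 0.09, 95% interval 0.04 to 0.44) did not pass the test, with an adjusted p of 0.063 from limma. In DR500, Ifit2 fell by 0.93 (log2, standard error 0.09, adjusted p = 1.17e-05), short of 2-fold, and by 1.02 without 4T1 replicate 2.

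Rsad2 and Cmpk2 lie 12.7 kb apart on chromosome 12, at chr12:26442743-26456452 and chr12:26469117-26479837. Cmpk2 is a mitochondrial kinase that phosphorylates UMP and CMP, and so supplies the type of nucleotide that Rsad2 converts. Rsad2 stood at 8.94, 8.61 and 8.89 in MR20, at 4.72, 4.64 and 4.65 in DR500 and at 4.98, 5.19 and 5.05 in 4T1. The 3 lines did not overlap, and the order was MR20, 4T1, DR500. By limma, Rsad2 rose 13.4-fold in MR20 (log2 3.74, standard error 0.09, adjusted p = 2.09e-09) and fell by 0.40 in DR500 (adjusted p = 0.00457). In DR500 and 4T1 its values lay below the array medians of 6.24 to 6.38, so this fall is between low signals.

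Cmpk2 stood at 10.85, 10.61 and 10.59 in MR20, at 5.79, 5.09 and 5.30 in DR500 and at 5.66, 5.90 and 5.74 in 4T1. All MR20 arrays were above the rest, and the DR500 arrays, which scattered most for this gene (SD 0.36, n = 3), overlapped those of 4T1. Cmpk2 rose 30.2-fold in MR20 (log2 4.91, standard error 0.16, adjusted p = 1.12e-08). Its log2 fold change in DR500 was -0.37 (standard error 0.16, adjusted p = 0.0827), and without DR500 replicate 1, the highest of the 3, it was -0.57 with an adjusted p of 0.00159. The nearest measured neighbours outside the pair did not pass the test in MR20, with log2 fold changes of -0.03 for Rnf144a and -0.04 for Sox11.

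Rtp4 is a Golgi chaperone of receptors that also binds viral RNA. It stood at 11.55, 11.63 and 11.69 in MR20, at 7.25, 7.33 and 7.28 in DR500 and at 7.06, 7.21 and 7.32 in 4T1. Its rise in MR20 was 21.5-fold (log2 4.42, standard error 0.07, adjusted p = 2.17e-10), while DR500 and 4T1 arrays overlapped (log2 fold change 0.09, 95% interval -0.07 to 0.25, adjusted p = 0.354). Rtp4 (chr16:23520219-23614222) overlaps Masp1 by 1 kb in the annotation. Masp1 had log2 fold changes of 0.56 in MR20 and 2.93 in DR500, and signal from the shared stretch cannot be assigned to either gene with certainty.

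Samd9l, which restricts poxviruses and holds back cell growth, had the largest fall of the 9 genes in DR500. It stood at 9.54, 9.43 and 9.53 in MR20, at 5.51, 5.80 and 6.19 in DR500 and at 6.93, 6.76 and 6.75 in 4T1. The lines did not overlap, and DR500 was the lowest, with its arrays below the array medians of 6.24 to 6.38. Samd9l rose 6.44-fold in MR20 (log2 2.69, standard error 0.14, adjusted p = 4.34e-07) and fell by 0.98 in DR500 (standard error 0.14, adjusted p = 2.20e-04). Its fall reached 1.01 to 1.16 on the log2 scale, beyond 2-fold, when 4T1 replicate 2, 4T1 replicate 3 or DR500 replicate 3 was left out.

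Bst2 stood at 10.62, 10.53 and 10.48 in MR20, at 7.51, 7.52 and 7.75 in DR500 and at 8.20, 8.20 and 8.16 in 4T1. As with Samd9l and Rsad2, the lines did not overlap and DR500 was the lowest. Bst2 rose 5.11-fold in MR20 (log2 2.35, standard error 0.07, adjusted p = 1.12e-08) and fell by 0.59 in DR500 (standard error 0.07, adjusted p = 8.53e-05). The nearest measured neighbour, Mvb12a at 5.4 kb, encodes a subunit of a sorting complex, and its log2 fold changes were -0.30 in MR20 and -0.98 in DR500.

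Xaf1 binds and antagonises the apoptosis inhibitor XIAP. It stood at 9.48, 9.59 and 9.75 in MR20, at 6.52, 6.78 and 6.61 in DR500 and at 6.14, 6.34 and 6.47 in 4T1. All DR500 arrays were above all 4T1 arrays by a small margin, and MR20 arrays were far above both. Xaf1 rose 9.79-fold in MR20 (log2 3.29, standard error 0.11, adjusted p = 1.12e-08) and by 0.32 in DR500 (standard error 0.11, adjusted p = 0.0324). The adjusted p in DR500 came to between 0.0518 and 0.122 without 4T1 replicate 1, 4T1 replicate 2, DR500 replicate 2 or DR500 replicate 3. Fbxo39, which lies 0.7 kb from Xaf1, had log2 fold changes of 0.03 in MR20 and 0.02 in DR500, and neither passed the test.

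Ifitm3 was the only one of the 9 genes to rise by a like amount in both selected lines. It stood at 13.67, 13.65 and 13.62 in MR20, at 13.61, 13.63 and 13.70 in DR500 and at 12.90, 12.89 and 12.83 in 4T1. MR20 and DR500 arrays overlapped, and all were above the 4T1 arrays. The rise was 1.71-fold in MR20 (log2 0.77, standard error 0.05, adjusted p = 3.15e-06) and 1.71-fold in DR500 (log2 0.78, standard error 0.05, adjusted p = 1.38e-06). The log2 difference, MR20 over DR500, was -0.0018 (95% interval -0.12 to 0.12, adjusted p = 0.981).

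**Figure D1:**
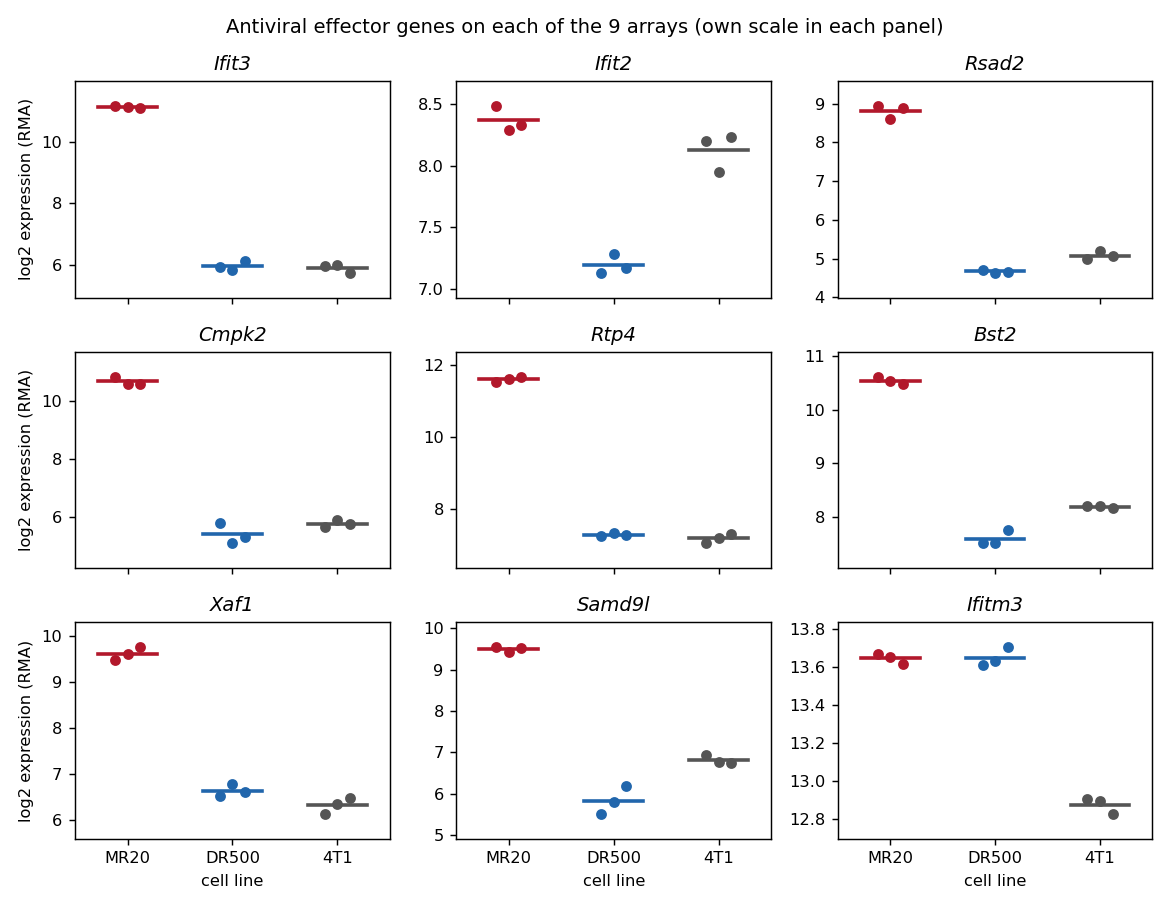
Log2 expression (y axis, RMA, own scale in each panel) of the 9 antiviral effector genes in MR20, DR500 and 4T1 cells (x axis), with a point for each of 3 arrays per line and a bar for the mean. For 7 genes the MR20 arrays are far above the rest, for Ifit2 the DR500 arrays are the lowest, and for Ifitm3 MR20 and DR500 arrays both lie between 13.61 and 13.70.

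DR500 cells did not show the pattern of MR20 cells. Relative to 4T1, 2 of the 9 genes rose in DR500 (Ifitm3 and Xaf1), 4 fell (Rsad2, Bst2, Ifit2 and Samd9l) and 3 did not pass the test (Cmpk2, Rtp4 and Ifit3). Of all genes, 20.2% rose and 21.3% fell in this comparison, so that 2 rises among 9 genes lie near the background. The 4 falls lie above it, but that of Rsad2 is between signals below the array medians. Samd9l was also below the array medians on the DR500 arrays, though not on the 4T1 arrays. None of the 9 passed 2-fold in either direction by limma, where 2.47% of all genes rose and 3.09% fell beyond 2-fold. Without 4T1 replicate 2, both Ifit2 and Samd9l fell beyond 2-fold. At an unadjusted p under 0.05, 2 were higher and 5 lower. The median log2 fold change was -0.37, against 0.07 over all genes. Both comparisons use the same 4T1 arrays, so they are not independent.

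The lines were also compared directly, MR20 over DR500, which is the test of the difference between both changes. All genes but Ifitm3, 8 of 9, were higher in MR20 than in DR500 beyond 2-fold, and none was lower. Of all genes, 20.6% were higher, 3.23% beyond 2-fold, and 21.2% were lower, 2.87% beyond 2-fold. The differences were 5.29 for Cmpk2, 5.18 for Ifit3, 4.33 for Rtp4, 4.15 for Rsad2 and 3.67 for Samd9l on the log2 scale. Xaf1, Bst2 and Ifit2 followed with 2.97, 2.95 and 1.17, and the largest adjusted p of the 8 was 1.98e-06, for Ifit2 (limma).

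**Figure D2:**
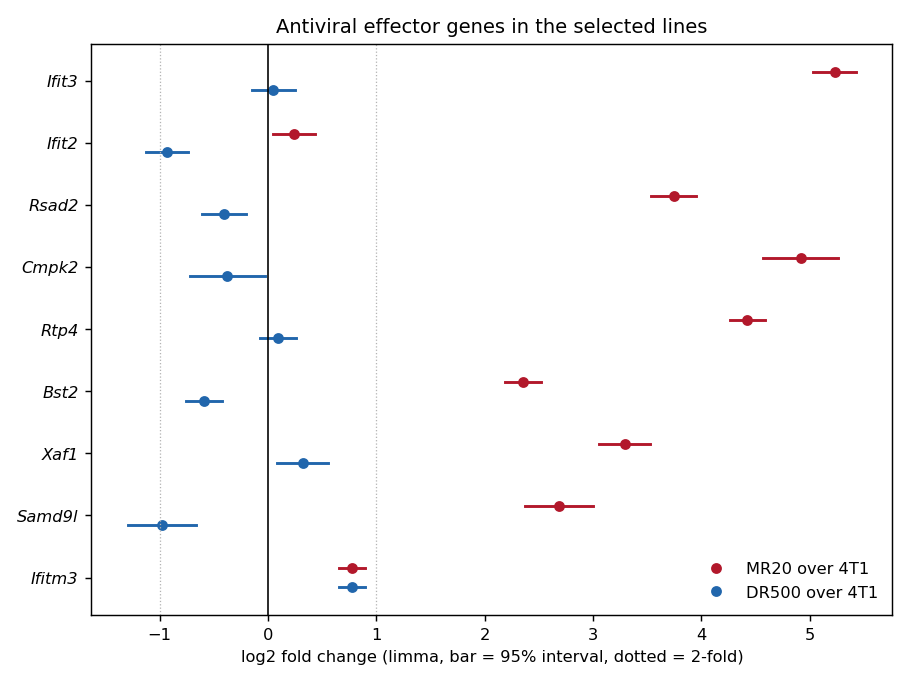
Log2 fold change (x axis, limma) of the 9 antiviral effector genes (y axis) in MR20 and in DR500 over 4T1, from 3 arrays per line, with bars for the 95% interval and dotted lines at 2-fold. The MR20 points lie between 0.24 and 5.23, and the DR500 points between -0.98 and 0.78.

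Across the 9 arrays, each gene was set against the mean of the other 8 genes. Pearson's r was 0.969 to 0.998 for 7 genes, 0.671 for Ifit2 and 0.421 for Ifitm3. These values describe 9 arrays in 3 lines, rest mainly on the distance of MR20 from the other lines, and carry no test. Among all other genes, those with the profile most like the mean of the 9 were Parp12 (r = 0.999), Ddx60 (0.999), Ifit1 (0.999), Gm12185 (0.998), Usp18 (0.998) and Irgm1 (0.998), over the same 9 arrays. Genes picked for this profile are higher in MR20 by the way they were picked, so their rise there is no separate result. Their log2 fold changes in MR20 ran from 1.52 for Parp12 to 4.18 for Usp18.

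The families of the effectors were split as well. Of 14 measured relatives, 6 rose and 1 fell in MR20, and 4 rose and none fell in DR500. An unadjusted p under 0.05 gave the same counts. Over all genes, 15.4% rose and 17.1% fell in MR20, and 20.2% rose and 21.3% fell in DR500. The 4 rises in DR500 thus lie near the background. In the Ifit cluster on chromosome 19, Ifit3b stood at 7.91, 7.52 and 7.80 in MR20, at 3.77, 4.09 and 3.62 in DR500 and at 3.69, 3.58 and 3.51 in 4T1. Its log2 fold change in MR20 was 4.15 (standard error 0.13). Ifit3 and Ifit3b are near-identical copies, so their signals cannot be separated with certainty. Ifit1, which binds viral RNA with an unmethylated cap, rose by 3.48 in MR20 (standard error 0.09, adjusted p = 2.50e-09), and Ifit1bl2 rose by 0.60. None of these passed the test in DR500. Of the genes before Ifit2, Lipa, a lysosomal lipase, rose by 0.61 in MR20 and by 1.52 in DR500, while Ch25h, which makes an antiviral oxysterol, had log2 fold changes of -0.18 in MR20 and -0.16 in DR500 that did not pass.

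In the Ifitm cluster on chromosome 7, the genes beside Ifitm3 (chr7:141009590-141010744) changed more in DR500 than in MR20. Ifitm6, 5.1 kb away, stood at 7.84, 7.71 and 7.56 in MR20, at 9.83, 10.18 and 10.03 in DR500 and at 6.13, 6.06 and 6.03 in 4T1. It rose 15.3-fold in DR500 (log2 3.94, standard error 0.10, adjusted p = 7.83e-10) and 3.09-fold in MR20 (log2 1.63, adjusted p = 1.04e-06). Ifitm1, on the other side at 39.8 kb, stood at 5.36, 6.27 and 5.83 in MR20, at 8.18, 7.99 and 8.00 in DR500 and at 6.26, 6.14 and 5.98 in 4T1. It rose 3.82-fold in DR500 (log2 1.93, adjusted p = 1.37e-05) and did not pass the test in MR20 (log2 fold change -0.30, adjusted p = 0.285). MR20 was lower than DR500 by a log2 difference of -2.31 for Ifitm6 and -2.24 for Ifitm1, with adjusted p of 2.38e-08 and 4.38e-06. Ifitm2, close in sequence to Ifitm3 and so not fully separable from it, rose by 0.17 in MR20 and by 0.34 in DR500. Ifitm7, a relative on chromosome 16 and so outside the cluster, rose by 0.38 in DR500. Ifi44l, a relative of Ifi44, rose 7.02-fold in MR20, and Cmpk1, the cytosolic counterpart of Cmpk2, fell by 0.29 there.

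Most other measured neighbours of the effectors did not pass the test in MR20. Near Rtp4 these were Rtp1, Rtp2 and Sst, near Xaf1 they were Slc13a5, Tekt1 and 4930563E22Rik, and near Samd9l they were Hepacam2 and Vps50, and none of these passed in DR500 either. The same held for Dcdc2c beyond Cmpk2 and for Plvap near Bst2. Of the rest, Gtpbp3, 34.6 kb from Bst2, fell by 0.57 in MR20 and by 0.39 in DR500, and Id2, which lies 1346.7 kb from Rsad2, rose by 0.64 in MR20 and by 1.30 in DR500. Tmem221 near Bst2 rose by 0.43 and B4galnt4 near Ifitm3 fell by 0.71 in DR500, and neither passed in MR20.

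**Figure D3:**
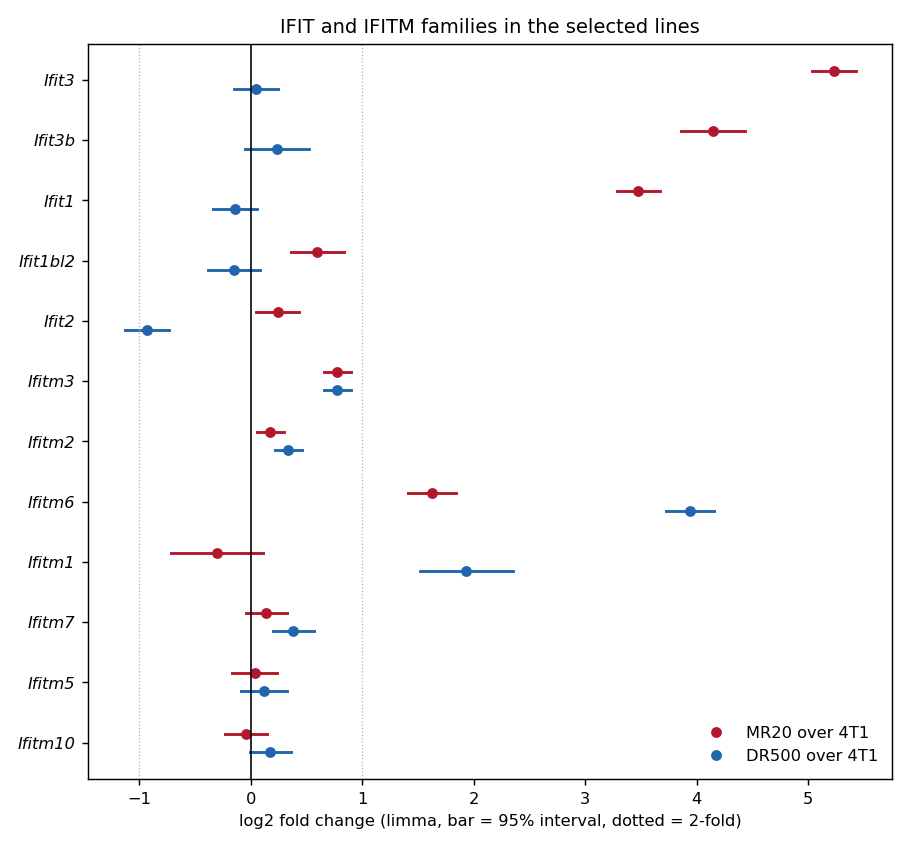
Log2 fold change (x axis, limma) of Ifit and Ifitm genes (y axis) in MR20 and in DR500 over 4T1, from 3 arrays per line, with bars for the 95% interval and dotted lines at 2-fold. Ifit3, Ifit3b and Ifit1 lie above 3 in MR20 only, whereas Ifitm6 and Ifitm1 are higher in DR500 than in MR20.

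Other antiviral genes that interferon induces, 27 measured of a list of 30, mostly rose in MR20 too. There, 15.4% of all genes rose, 1.41% beyond 2-fold, and 17.1% fell. Of the 27 genes, 26 rose, 21 of them beyond 2-fold, and none fell, with a median log2 fold change of 1.74. The largest rises were those of the nucleic acid sensor Zbp1 (4.20), the oligoadenylate synthetases Oas2 (3.98) and Oas3 (3.76) and the guanylate-binding protein gene Gbp3 (3.64), and Ch25h alone did not pass. In DR500, 11 of the 27 rose and 3 fell, with a median of 0.21, where 20.2% of all genes rose and 21.3% fell. Trim30a (1.78), Zbp1 (1.03), the RNA sensor gene Ddx58 (0.91) and its relative Dhx58 (0.84) rose most there. Isg20, an exonuclease gene, fell by 0.64, Trim25 by 0.54 and Ifi35 by 0.33.

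The genes upstream of the effectors moved in both directions. Of 17 measured regulators, transducers and receptors, 9 rose and 3 fell in MR20, where 15.4% of all genes rose and 17.1% fell. In DR500, 10 rose and 3 fell, where 20.2% of all genes rose and 21.3% fell, so that the falls lie near or below the background in both lines. Irf7 stood at 11.21, 11.00 and 10.93 in MR20, at 6.72, 6.97 and 7.00 in DR500 and at 5.82, 6.31 and 6.22 in 4T1. The lines did not overlap, and Irf7 rose 30.5-fold in MR20 (log2 4.93, standard error 0.13, adjusted p = 4.04e-09) and 1.72-fold in DR500 (log2 0.78, standard error 0.13, adjusted p = 7.40e-04). Stat2 rose by 2.19, Irf9 by 1.69 and the transcription factor gene Irf1 by 1.45 in MR20. In DR500, Irf9 rose by 0.39 and Stat2 had a log2 fold change of 0.18 that did not pass (adjusted p = 0.0939). Stat3, which transmits cytokine signals of the IL6 family, rose by 0.25 in MR20 and by 1.74 in DR500. Jak1 rose by 0.39 in MR20 and by 0.94 in DR500. The interferon receptor genes Ifnar1 and Ifnar2 fell by 0.63 and 0.27 in MR20 and rose by 0.34 and 0.51 in DR500. Ifngr1, a chain of the interferon gamma receptor, fell by 0.73 in DR500 and had a log2 fold change of 0.19 in MR20 that did not pass.

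No interferon gene passed the test against 4T1. Of 8 measured, 0 rose and 0 fell in MR20 or DR500 by limma, and 1 was higher in DR500 at an unadjusted p under 0.05. In the direct comparison of MR20 over DR500, Ifna4 was lower by a log2 difference of -0.20 (adjusted p = 0.0452). The Ifnb1 probe set, for interferon beta, averaged 4.26 in MR20, 4.19 in DR500 and 4.19 in 4T1. Its log2 fold changes were 0.07 (standard error 0.09) in MR20 and -0.0045 (standard error 0.09) in DR500. This signal was below the array medians of 6.24 to 6.38 and near that of the leukocyte marker Adgre1 (4.15 to 4.23). A change of Ifnb1 could therefore go undetected. Of 9 negative regulators of the pathway, 5 rose and 0 fell in MR20 by limma, with 5 and 0 at an unadjusted p under 0.05, and 5 rose and 3 fell in DR500. Without 4T1 replicate 2, 3 rose in MR20. Over all genes, 15.4% rose and 17.1% fell in MR20, and 20.2% rose and 21.3% fell in DR500. Usp18, a protease that removes Isg15 and blocks the receptor, stood at 12.58, 12.58 and 12.62 in MR20, at 7.77, 7.91 and 7.83 in DR500 and at 8.42, 8.32 and 8.51 in 4T1. It rose 18.1-fold in MR20 (log2 4.18, standard error 0.07) and fell by 0.58 in DR500, whereas Socs3, an inhibitor of Stat3 signalling, rose by 2.45 in DR500 and had a log2 fold change of 0.07 in MR20. The other rises in MR20 were smaller, with Trim28 at 0.35, Socs1, an inhibitor of Jak kinases, at 0.32 and the phosphatase gene Ptpn6 at 0.32. In DR500, Ptpn6 rose by 0.59, and Ptpn2, a phosphatase gene, fell by 0.75.

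**Figure D4:**
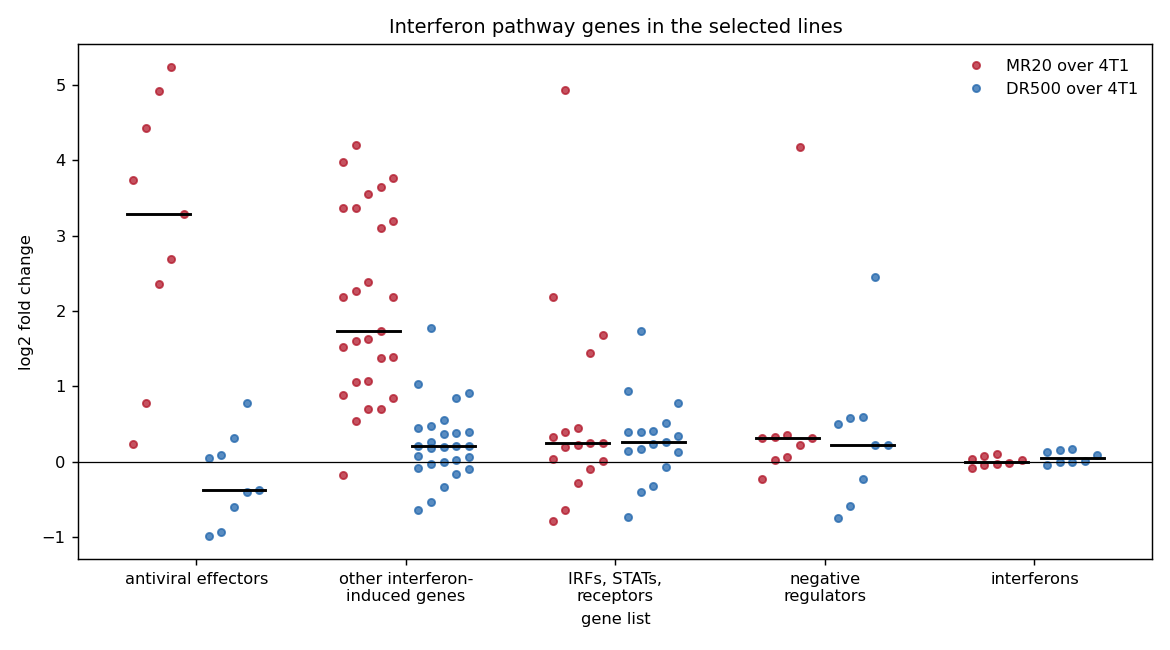
Log2 fold change (y axis, limma) of each measured gene of 5 lists (x axis) in MR20 and in DR500 over 4T1, with a point per gene and a bar for the median of the list. Antiviral effectors and other interferon-induced genes have medians of 3.29 and 1.74 in MR20 and -0.37 and 0.21 in DR500, and interferon genes lie near 0 in both.

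Markers of other cells and of the epithelium were measured beside these results. Over all genes, 15.4% rose and 17.1% fell in MR20, and 20.2% rose and 21.3% fell in DR500. Of 10 leukocyte and plasmacytoid dendritic cell markers, 1 rose in each line, Cd14, by 1.42 in MR20 and by 0.67 in DR500. The pan-leukocyte gene Ptprc had log2 fold changes of 0.01 in MR20 and 0.07 in DR500. The mean of the leukocyte list ranged over 5.45 to 5.58 in MR20, 5.48 to 5.59 in DR500 and 5.37 to 5.41 in 4T1. Of 6 endothelial markers, 0 passed the test in MR20 or DR500 by limma, and 2 were higher in DR500 at an unadjusted p under 0.05. Fibroblast markers, 8 measured, gave 1 rise and 1 fall in MR20 and 2 rises and 1 fall in DR500. The receptor gene Pdgfra fell by 0.63 in MR20 and rose by 1.70 in DR500, and Postn, which encodes a matrix protein, rose by 1.34 in MR20 and fell by 0.97 in DR500. Dcn rose by 0.56 in DR500. Epithelial markers, 6 measured, set DR500 apart, since 5 fell there, among them Krt7 by 5.67, Epcam by 4.19, Cdh1 by 3.84 and Krt19 by 2.37. In MR20, 4 epithelial markers rose, by 0.68 for Krt19, 0.22 for Krt7, 0.21 for Krt18 and 0.19 for Krt8, and none fell. Of 6 housekeeping genes, 1 rose and 2 fell in MR20, and 3 fell in DR500. Pgk1 rose by 0.17 in MR20 while Tbp fell by 0.45 and Rplp0 by 0.18, and in DR500 Hprt fell by 0.86, Rplp0 by 0.27 and Pgk1 by 0.16. The part of these markers in the effector values was not tested.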

How the data were processed

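Expression was measured in MR20, DR500 and 4T1 cells on 1-colour Affymetrix whole-transcript mouse arrays, 3 per line. The authors corrected the background, normalized quantiles and summarised probes by robust multi-array normalization with affy, and deposited log2 values. Versions of affy and limma, array batches, and whether normalization covered all arrays at once are not given in the sources used here. Of 35556 probe sets, 21789 have 1 gene symbol, assigned by Entrez identifier for 21698 and otherwise by symbol. The other 1621 have several symbols and 12146 have no listed gene. In 999 genes with several probe sets the brightest was used, which left 19938 genes. Each effector measured has 1 probe set.

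Fits were made with R 4.3.3 and its package limma 3.58.1 (files were read through data.table, version 1.17.8) on all 9 arrays with a mean per line and empirical Bayes moderation, with no filter on dim genes. Benjamini-Hochberg adjustment ran over all genes within a comparison. The threshold was an adjusted p under 0.05 and, where stated, a fold change over 2. The number of arrays limits the precision, and no depth applies. The fit was tested on simulated data. The effectors and the gene lists were chosen with earlier results of these data known. Named genes are all effectors, Irf7, Irf9 and Stat2, of each list the 4 genes with the largest passed change, the nearest measured neighbours of each effector, and the 6 genes most similar in profile. Other named genes were chosen after their values were seen. Promoter windows and positions are from RefSeq, build GRCm38.p6.

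Between arrays that share a replicate number, deviations from line means correlated, over genes, at -0.309 to 0.327. Arrays with different numbers were not compared in this way, so these values cannot show whether arrays are paired. Alternatives tried were fitting just the lines being compared, leaving out dim genes, another round of quantile normalization, median centring, all probe sets tested, the mean of a gene's probe sets, a trended robust variance, a replicate block and leaving out each array.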

Additional observations from a re-analysis of the deposited data

Results flagged for a closer look

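The changes of MR20 and DR500 relative to 4T1 differed, by the direct limma comparison with an adjusted p under 0.05, for 8 of the 9 effectors. The change in MR20 minus the change in DR500, on the log2 scale, was 5.29 for Cmpk2, 5.18 for Ifit3, 4.33 for Rtp4, 4.15 for Rsad2, 3.67 for Samd9l, 2.97 for Xaf1, 2.95 for Bst2 and 1.17 for Ifit2.

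In the wider pathway, 6 genes passed the test in opposite directions in the selected lines. Usp18 (difference 4.76), Ifi35 (1.94), Trim25 (1.42) and Isg20 (1.18) rose in MR20 and fell in DR500. The receptor genes Ifnar1 (-0.97) and Ifnar2 (-0.79) fell in MR20 and rose in DR500.

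Of 13767 probe sets that are not annotated with a single gene and enter no comparison above, 77 were higher beyond 2-fold in MR20 than in 4T1 and 61 were higher in DR500 than in 4T1, with adjusted p under 0.05 over all probe sets.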

How the results depend on the processing

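The counts of effectors beyond 2-fold were recomputed under 14 alternatives for each comparison. MR20 over 4T1 gave 7 higher and 0 lower, and MR20 over DR500 gave 8 higher and 0 lower, under each of them. DR500 over 4T1 gave 0 higher under each. It gave 0 to 2 lower when an array was left out: 2 (Ifit2 and Samd9l) without 4T1 replicate 2, 1 (Samd9l) without 4T1 replicate 3 and 1 (Samd9l) without DR500 replicate 3. Both genes lie close to 2-fold, with -0.93 and -0.98 from all arrays.

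With a replicate block, that is, with the replicate number as a term, the counts were again 7 higher in MR20 over 4T1, 0 in either direction in DR500 over 4T1 and 8 higher in MR20 over DR500. Whether arrays with the same number belong together is not known.

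Among single genes no direction reversed at the threshold. Ifit2 in MR20 passed the test in 4 settings, with adjusted p of 0.0258 without dim genes, 0.0237 after a repeated quantile normalization, 0.0447 after centring and 0.0489 with the trended variance. Its adjusted p ranged over 0.0237 to 0.237. In DR500, Cmpk2 passed without dim genes (0.0462), with the trended variance (0.0476) and without DR500 replicate 1 (0.00159), in a range up to 0.267. Cmpk2 was itself dim in both lines compared, with means of 5.40 in DR500 and 5.77 in 4T1. Both lie below the array medians of 6.24 to 6.38. Its signal was high only in MR20 (mean 10.7), a line outside this comparison, so its pass without dim genes is not one between bright signals. Also in DR500, Rtp4 passed after the repeated normalization (log2 0.20, adjusted p = 0.0373). Xaf1 did not pass there when all probe sets were tested (0.0594). The number of effectors that rose in DR500 was thus 1 to 3, against 2. Of the negative regulators, 1 fell in MR20 when only the lines compared were fitted, against 0. Of the relatives, 2 fell in MR20 without MR20 replicate 2, against 1. Of the interferon genes, 1 rose in DR500 after the repeated normalization and without DR500 replicate 2, against 0. The cause was not tested. The repeated normalization gave a median change over all genes of 0.12 in DR500, against 0.07, and 576 genes called higher and 524 lower, against 492 and 617.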
